A study of Mus musculus with 41 samples.

Results

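Peaks of 4 histone marks were examined at 7 genes of MHC class II antigen presentation in mouse cells and tissues: H2-Aa, H2-Ab1, H2-Eb1, H2-DMa, H2-DMb1, Cd74 and Ciita. They were chosen by name, and not by a threshold on measured values, as 7 of the 53843 genes annotated on chromosomes 1 to 19 and X. A gene was scored as called in a peak list when a peak overlapped the promoter of any of its transcripts (2 kb on each side of a transcription start site), and peaks in the gene body with 10 kb on each side were counted separately.

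CUT&Tag, which cuts and tags DNA where an antibody sits on chromatin, had been run for lactylation of histone H3 at lysine 18 (H3K18la), its acetylation at lysine 27 (H3K27ac), trimethylation at lysine 4 (H3K4me3) and trimethylation at lysine 27 (H3K27me3). The 41 samples gave 24 peak lists, because replicates had been merged before calling: 17 lists came from 2 samples and 7 from 1. The groups carried the label control and no genotype was compared. BMDM were macrophages grown from C57BL/6 bone marrow with M-CSF and kept in DMEM. PIM were macrophages of C57BL/6 mice, sorted as CD45+CD11b+F4/80+CD64+ cells from calf muscle on the second day after hindlimb ischemia. GAS was whole gastrocnemius muscle of young adult female C57BL/6 mice, in which macrophages and vessels remain beside muscle fibres. ADIPO were adipocyte nuclei captured from the white fat of C57BL/6 AdipoCre-NuTRAP mice, where the tag on the nuclei depends on an adipocyte Cre. MB and MT were primary C57BL/6 myoblasts in DMEM and the myotubes made from them. ESC-ser and ESC-2i were embryonic stem cells of the single E14 line in serum-lif or 2i-lif medium. The embryonic stem cells were profiled as whole cells and the rest as nuclei.

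MHC class II molecules present peptides from engulfed material to CD4+ T cells. H2-Aa with H2-Ab1, and H2-Eb1 with its alpha partner, encode the chains that hold the peptide. Cd74 encodes the invariant chain, which fills the groove during transport, and H2-DMa and H2-DMb1 encode the editor that swaps the last piece of the invariant chain for an antigenic peptide. Ciita encodes the coactivator that switches these genes on. It binds no DNA itself and docks on the RFX complex, a CREB-family factor and NF-Y, which sit on the X, X2 and Y boxes of class II promoters. Macrophages make little class II at rest and raise it after interferon gamma, whereas dendritic cells and B cells make it constantly, and Ciita uses a different start in each setting. C57BL/6 mice lack a working H2-Ea, the I-E alpha chain, and so show no I-E at the surface although H2-Eb1 is intact.

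H3K27ac, H3K4me3 and H3K18la are found at active promoters or enhancers. H3K27me3 is the mark of Polycomb repression. Each list held 11002 to 36813 peaks. They spanned 22.6 to 137 Mb for H3K18la, 27.4 to 197 Mb for H3K27ac, 40.9 to 65.1 Mb for H3K4me3 and 54.8 to 173 Mb for H3K27me3. The shortest list of each acyl mark belonged to a macrophage, 22.6 Mb for BMDM H3K18la and 27.4 Mb for PIM H3K27ac, each from 1 sample. Signal was not scaled between lists, so a peak is given by its percentile within its own list, where 100 is the peak with the most total signal and 0 the least. With 1 list a group there was no replicate spread, no error and no test for any value here. In tissue or mixed cells, more cells with a mark and more of the mark in each cell cannot be told apart.

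The cell labels were checked against marker genes by H3K18la promoter peaks. Of 8 macrophage markers, BMDM had 8 (11.1% of all genes), PIM 8 (22.8%), GAS 1 (Csf1r; 23.3%) and ADIPO 3 (25.7%). GAS had 4 of 5 muscle and 4 of 4 endothelial markers, MT 5 of 5 muscle markers (23.0% of all genes) and ADIPO 5 of 5 adipocyte markers. Both stem cell lists had 5 of 5 stem cell markers (20.6% of all genes in ESC-ser and 24.3% in ESC-2i). BMDM had 1 of 6 dendritic cell markers and PIM 2 of 6, and each had 1 of 5 B cell markers and 2 of 4 endothelial markers. Endothelial markers were called at 3 of 4 in BMDM H3K27ac (18.6% of all genes), 2 in PIM H3K27ac (26.1%) and 3 in PIM H3K4me3 (33.0%). Of the T cell markers Cd3e, Cd3d, Cd4 and Cd8a, only Cd3d was called in those 3 lists, at percentiles of 42.6, 39.4 and 55.5. In the PIM H3K4me3 list 4 of 6 dendritic cell markers were called (Flt3, Zbtb46, Batf3 and Clec9a), where 33.0% of all genes were. ESC-2i H3K4me3 had 3 of the 6 and GAS and ESC-ser 2, and PIM H3K27ac had 0. Their part in the class II peaks of PIM was not tested.

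Sequences just upstream of the RefSeq starts of 3 members are shown because they carry matches in the order X, X2, Y. Peaks also fell on or beside this arrangement differently. Binding of CIITA's partners to it was not measured. Each is the 150 bases before the RefSeq start, 5′ to 3′ (GRCm38.p6), at chr17:34287824-34287973 on the minus strand for H2-Aa, chr17:34305717-34305866 on the plus strand for H2-Eb1 and chr17:34153041-34153190 on the plus strand for H2-DMb1. Capitals mark, in order, an X box core match (GNAAC), an X2-type match (TGANG) and a Y box match (TGATTGG).
H2-Aa: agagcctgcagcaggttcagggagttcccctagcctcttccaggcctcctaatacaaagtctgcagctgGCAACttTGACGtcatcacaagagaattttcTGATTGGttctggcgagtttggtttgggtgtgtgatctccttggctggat
H2-Eb1: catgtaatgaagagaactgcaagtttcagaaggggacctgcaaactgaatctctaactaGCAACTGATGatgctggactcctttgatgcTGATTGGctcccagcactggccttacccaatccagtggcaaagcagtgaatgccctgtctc
H2-DMb1: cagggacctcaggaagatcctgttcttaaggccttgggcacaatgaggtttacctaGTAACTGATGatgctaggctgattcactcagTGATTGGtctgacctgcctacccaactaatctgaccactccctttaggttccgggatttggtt
The X core began at −81, −91 and −94 from the start of H2-Aa, H2-Eb1 and H2-DMb1. The Y box match began at −50, −61 and −63. X and X2-type matches did not overlap. In H2-Eb1 and H2-DMb1 they abutted with no base between them. There the pattern alone cannot tell whether the TGANG match is a separate X2 box or the end of the X box. For H2-DMb1 the RefSeq start lies downstream of the GENCODE start (34153072) used for the peak calls, so that the arrangement, at 34153097 to 34153134, is inside the GENCODE gene. Searched on both strands in the 250 bases upstream of 32851 RefSeq promoters, GNAAC occurred in 79.6%, TGANG in 84.8% and TGATTGG in 7.23%. The ordered arrangement on 1 strand, with at most 8 bases between X and X2 and 12 to 32 between X2 and Y, occurred in 15 promoters (0.0457%). Of these 15, 5 were class II genes: the 3 shown, H2-Ob and H2-Eb2. The spacing was set after these sequences had been seen, so the share is a description. The table held 4 of the 7 members. The 2 H2-DMa entries, at chr17:34122682-34122831 and chr17:34125368-34125517, had no such match.

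Peaks met these matches in different lists. At H2-Aa the arrangement lay under the BMDM H3K27ac, PIM H3K4me3 and MT H3K27me3 peaks. At H2-DMb1 it lay under PIM H3K18la, H3K27ac and H3K4me3, GAS H3K4me3, and GAS, MB and MT H3K27me3. At H2-Eb1 it lay under PIM H3K4me3, ESC-2i H3K18la and MT H3K27me3, and the BMDM and PIM H3K18la peaks ended 227 and 228 bp short of it.

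A second sequence is shown because it was the stretch within Ciita that H3K18la and H3K27ac peaks of both macrophages shared. The 4 peaks overlapped over 626 bp, chr16:10495941-10496566 (mm10), and the middle 300 bases, chr16:10496104-10496403 on the plus strand, overlapped no exon. They began 16045 bp after the first annotated Ciita start and 6321 bp after the last. Capitals mark GAGGAA, the core that PU.1, a macrophage transcription factor, can bind, on either strand.
Ciita intron: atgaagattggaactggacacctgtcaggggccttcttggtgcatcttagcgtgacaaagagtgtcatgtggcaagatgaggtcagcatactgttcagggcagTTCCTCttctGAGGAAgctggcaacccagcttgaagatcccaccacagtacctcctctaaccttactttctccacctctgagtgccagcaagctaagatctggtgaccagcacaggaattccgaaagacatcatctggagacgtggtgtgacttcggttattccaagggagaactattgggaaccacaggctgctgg
It held 2 such matches, and 28.3% of RefSeq promoter windows of the same length hold at least 1. Matches to TGANTCA (AP-1), TTGCNNNAA (C/EBP) and GAAANNGAA (IRF) numbered 0, against 7.81%, 9.56% and 8.56% of those windows.

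H3K18la was called at more of these promoters in PIM than in any other cell: 6 of 7, against 22.8% of all genes. Only H2-Aa was not called. This order held for the lists as deposited and turned when all H3K18la lists were reduced to the bases of the shortest, with 0 in PIM (4.42% of all genes) and 4 in BMDM (11.1%). The 5000 strongest peaks gave 1 in each of BMDM (3.02%), PIM (4.95%), GAS (5.66%) and ADIPO (5.71%). BMDM had 4 (H2-Ab1, H2-Eb1, H2-DMa and Cd74), against 11.1% of all genes. GAS had 3 (H2-Ab1, H2-DMa and Cd74; 23.3% of all genes) and ADIPO 2 (H2-Eb1 and H2-DMa; 25.7%). The remaining lists reached 1 of 7 in MB (7.61%), 1 in MT (23.0%), 1 in ESC-ser (20.6%) and 3 in ESC-2i (24.3%). H2-DMb1 and Ciita were called in PIM and not in BMDM, a pattern that 12.6% of all genes had.

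Some calls, most of them at H2-DMa, lay away from the main start, the cluster of starts with the most protein-coding transcripts. Each gene was therefore also scored at its main start alone. PIM then kept 6 of 7 H3K18la calls, BMDM 3, GAS 3 and ADIPO 0. The shares of 21705 protein-coding genes called in the same way were 33.2% in PIM, 15.1% in BMDM, 31.3% in GAS and 40.4% in ADIPO. Taken at any start, the members' H3K18la peaks in PIM had a median percentile of 62.7 beside 60.4 over all called genes. In BMDM the median was 43.7 beside 52.7, in GAS 22.6 beside 62.5 and in ADIPO 78.2 beside 59.1. These medians include H2-DMa peaks at a start other than the main one, at 81.9 in BMDM, 94.9 in GAS and 92.2 in ADIPO. By maximum signal the medians were 47.0 in BMDM and 47.8 in PIM, and by peak width 23.9 and 73.9.

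**Figure D1:**
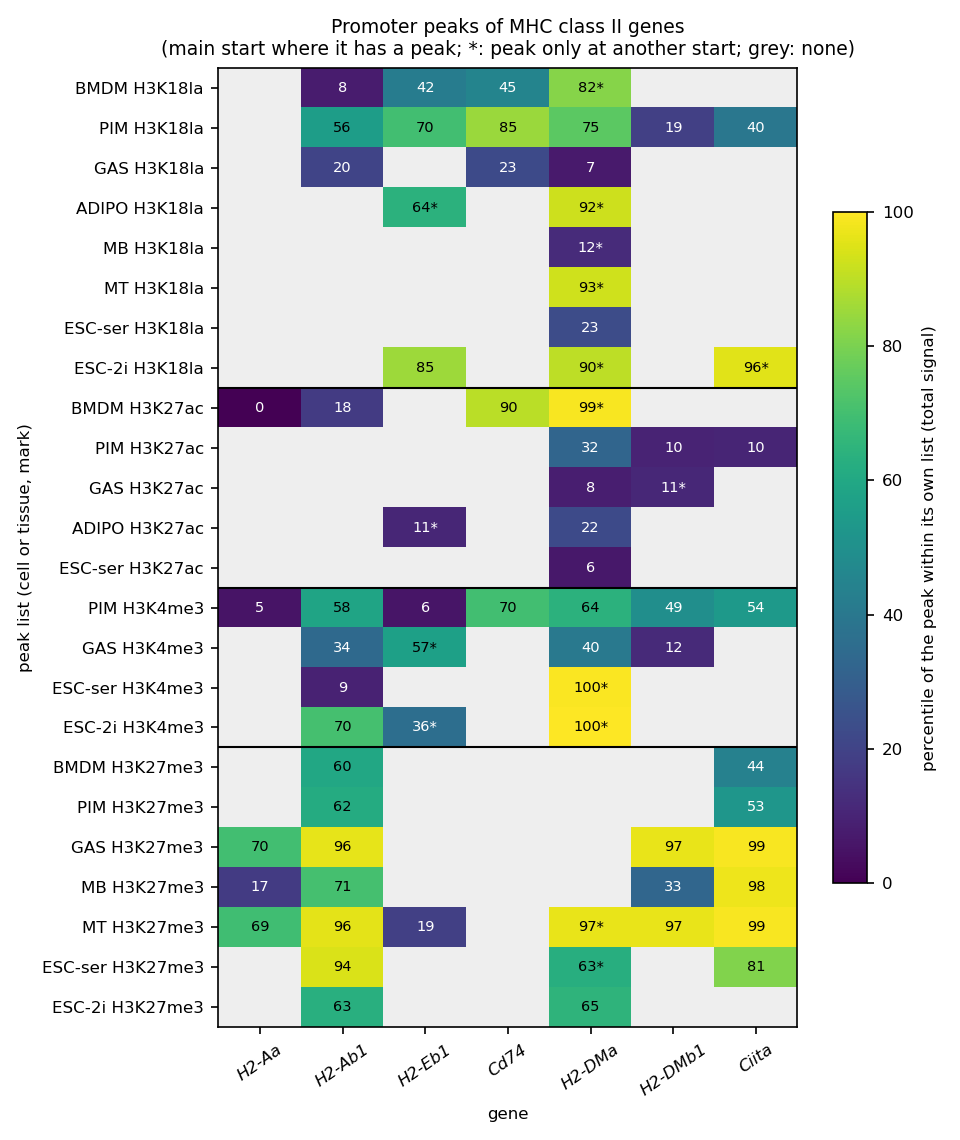
Promoter peaks of the 7 genes (columns) in the 24 lists (rows, by mark), with cells shaded and numbered by the percentile of the peak within its own list. A value is that of the main start where it has a peak, a star means a peak at another start only, and grey means none. PIM H3K4me3 fills all 7 columns, H2-Ab1 and Ciita fill most H3K27me3 rows, and Cd74 is grey in every H3K27me3 row.

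H3K4me3, the most promoter-bound of the marks, was called at 7 of 7 genes in PIM (33.0% of all genes), all at the main start, where 54.9% of protein-coding genes were called. GAS had 4 (35.2%), ESC-2i 3 (33.2%) and ESC-ser 2 (25.6%). The PIM peaks stood low beside other promoters: their median percentile was 53.9 against 73.9 over all called genes, from 5.1 at H2-Aa and 5.6 at H2-Eb1 to 69.9 at Cd74 at the main starts. Fewer members were called in shortened PIM lists: 4 among the peaks above the median by total signal (25.8% of all genes), 3 with PIM and GAS lists at equal bases (24.4%) and 1 among the 5000 peaks of most signal (13.0%). GAS then had 2 (29.6%), 2 (30.7%) and 1 (13.3%). BMDM had no H3K4me3 list here.

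H3K27ac split the macrophages differently. BMDM had 4 of 7 (H2-Aa, H2-Ab1, H2-DMa and Cd74; 18.6% of all genes) and PIM 3 of 7 (H2-DMa, H2-DMb1 and Ciita; 26.1%). GAS had 2 (30.0%), ADIPO 2 (25.5%) and ESC-ser 1 (21.8%). The only gene called in both was H2-DMa, whose BMDM peak lay at another start. With the lists reduced to equal bases the order turned, with 2 in BMDM (15.2% of all genes) and 3 in PIM (26.1%). The highest PIM H3K27ac peak at any start stood at 99.8 for H2-DMa, 10.1 for H2-DMb1 and 10.2 for Ciita, with a median of 72.1 over all called genes, and the peak at the main start of H2-DMa stood at 32.5. The BMDM H3K27ac peaks at H2-Aa and H2-Ab1 stood at 0.2 and 17.5, in a list from 1 sample. At main starts each macrophage had 3 of 7. The shares of protein-coding genes were 30.8% in BMDM and 44.7% in PIM, so that PIM lay near its share.

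H3K27me3 lay on 6 of 7 members in MT (15.2% of all genes), 4 in GAS (17.7%), 4 in MB (8.44%) and 3 in ESC-ser (17.6%). BMDM (12.9%), PIM (16.9%) and ESC-2i (16.4%) each had 2. With the lists at equal bases BMDM (6.61%) and PIM (8.83%) had 0 and GAS 3 (7.12%). Among the 5000 peaks of most signal BMDM had 1 (9.05%), PIM 0 (10.5%) and GAS 3 (6.11%). The members' peaks were high in their lists in MT and GAS, with median percentiles of 96.2 and 96.4 beside 78.4 and 74.1 over all called genes. They were lower in BMDM, MB and PIM, at 51.9, 51.8 and 57.2 beside 77.4, 76.4 and 77.2. ESC-ser stood at 81.1 beside 80.4 and ESC-2i at 63.9 beside 73.9. In MT the calls of H2-DMa and H2-DMb1 were 1 peak of 28898 bp, which stands for both genes in the count and the median. The H2-DMa calls in MT and ESC-ser lay at another start than the main one. H2-Ab1 was called in 7 of 7 H3K27me3 lists, as were 2.97% of all genes. Ciita was called in 6 of 7, and 4.94% of all genes were called in 6 or 7. Cd74 was called in 0 of 7, as were 63.5% of all genes.

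Ciita, the switch of the set, spans chr16:10480059-10528418 on the plus strand, with starts at 10480059, 10488178 and 10489746. The last carries the most coding transcripts here. PIM was the only cell with active-mark peaks called at the last start, though not every cell had a list of each active mark. Its H3K18la peak there was 1249 bp long at the 39.5 percentile and ended 17 bp before the start, its H3K27ac peak was 976 bp at 10.2, and its H3K4me3 peak was 2806 bp at 53.9. A second PIM H3K18la peak of 2000 bp at 34.9 ended 23 bp before the middle start. PIM H3K4me3 also covered the first start, with 3720 bp at the 27.3 percentile.

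The same Ciita starts carried H3K27me3. Peaks near the last start were 4894 bp at the 43.8 percentile in BMDM and 3659 bp at 52.6 in PIM. Each macrophage also had a longer H3K27me3 peak further inside the gene, 14405 bp at 85.4 in BMDM and 19254 bp at 84.1 in PIM. In muscle and its cells the peaks at the starts were 22778 bp at 98.9 in GAS, 17985 bp at 97.6 in MB and 48414 bp at 99.1 in MT, in each case over all 3 starts. ESC-ser had 4396 bp at 81.1. ESC-2i had none at a Ciita promoter, but a 16456-bp H3K18la peak at the 95.7 percentile ended 261 bp before the first start. In PIM, H3K18la, H3K4me3 and H3K27me3 peaks shared 1249 bp just before the last start. Bulk peaks do not show whether the marks sat in the same cells.

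BMDM had no H3K18la or H3K27ac peak called at a Ciita start, and had no H3K4me3 list. It had peaks of both acyl marks inside the gene. Its 4 H3K18la peaks in the window ranked from 17.7 to 63.9, and its 2 H3K27ac peaks at 10.0 and 13.2. The intron stretch printed above had percentiles of 48.3 (BMDM H3K18la), 49.3 (PIM H3K18la), 10.0 (BMDM H3K27ac) and 16.4 (PIM H3K27ac). No H3K18la or H3K27ac list of another cell covered it, while PIM, GAS and MT H3K27me3 did. GAS peaks of both acyl marks in the Ciita window lay at the neighbour Dexi.

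**Figure D2:**
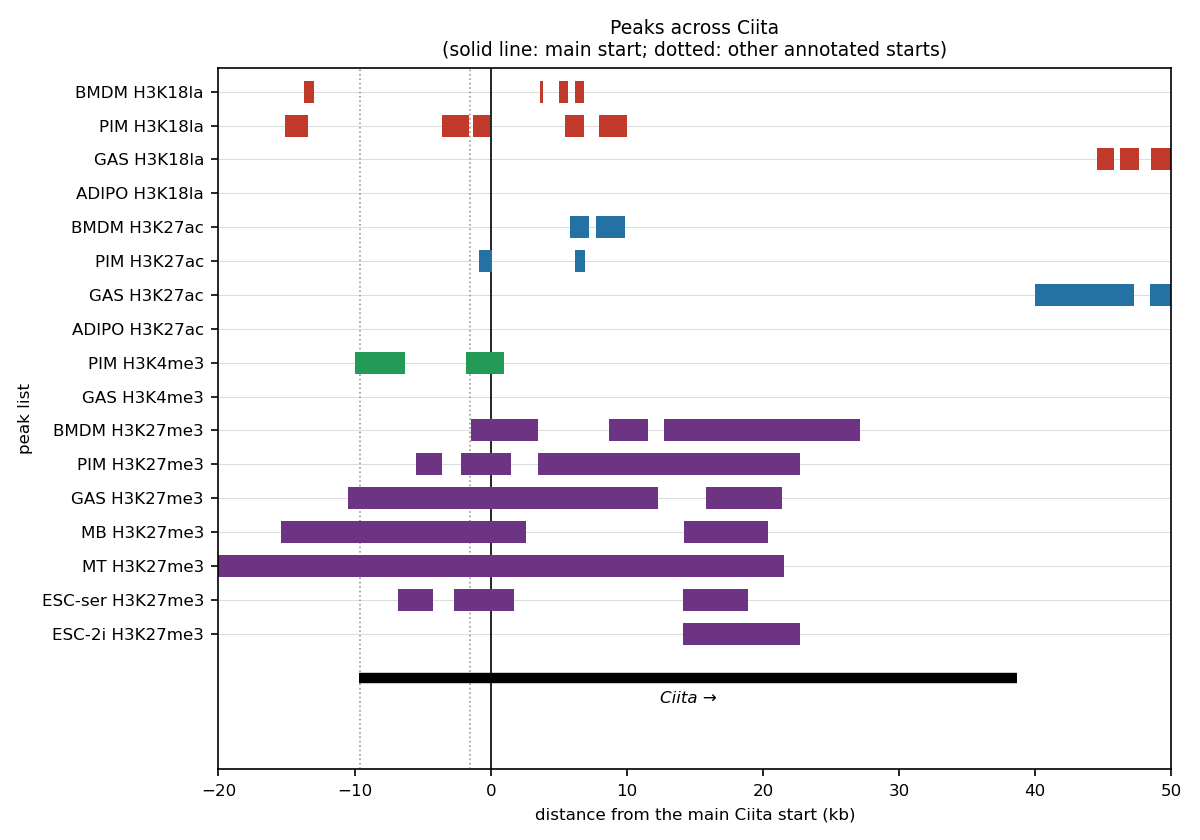
Peaks at Ciita in the active-mark lists of BMDM, PIM, GAS and ADIPO and in all 7 H3K27me3 lists, against distance in kb from the main (last) start, with bars as long as the peaks, a solid line at the main start and dotted lines at the others. PIM alone has active-mark peaks at the main start, both macrophages have H3K18la and H3K27ac inside the gene to its right, and H3K27me3 covers all starts in GAS, MB and MT.

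H2-Ab1, the beta chain of I-A, spans chr17:34257689-34269419 on the plus strand, with its main start at 34263209-34263331. It had H3K18la in BMDM, PIM and GAS. The BMDM peak was 348 bp at the 7.8 percentile, the PIM peak 2675 bp at 55.7 and the GAS peak 2219 bp at 20.4. The BMDM peak lay wholly inside the PIM peak. H3K27ac was called in BMDM (17.5 percentile) and not in PIM. H3K4me3 was called in all 4 of its lists, at 58.4 in PIM, 34.3 in GAS, 9.4 in ESC-ser and 70.5 in ESC-2i.

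H3K27me3 overlay the same start of H2-Ab1. The peaks were 8901 bp at the 60.0 percentile in BMDM, 5567 bp at 61.7 in PIM, 3331 bp at 70.6 in MB, 29869 bp at 95.8 in MT, 12386 bp at 94.5 in ESC-ser and 4262 bp at 62.9 in ESC-2i. In GAS a 2744-bp peak at 60.3 covered the start, and an 11443-bp peak at 96.1 began downstream, still within the promoter window, and ran over both later starts and past the end of the gene. H3K4me3 and H3K27me3 peaks of the same cell shared 2098 bp in PIM, 798 bp and a further 535 bp in GAS, 2853 bp in ESC-ser and 2639 bp in ESC-2i. In PIM H3K18la joined them over 1329 bp. Promoters with H3K18la, H3K4me3 and H3K27me3 peaks in PIM made up 3.14% of all genes, and H2-Ab1 and Ciita were the 2 members among them.

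H2-Aa, the alpha chain that pairs with H2-Ab1, spans chr17:34282744-34287823 on the minus strand. It had no promoter H3K18la peak in any of 8 lists. The active peaks it had were the BMDM H3K27ac peak, which ranked 12862 of 12884 (0.2 percentile), and the PIM H3K4me3 peak (5.1). Both therefore lay at the edge of what was called. H3K27me3 was called near it in GAS (69.9), MB (17.3) and MT (69.3), and only the MT peak covered the start.

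H2-Eb1, the I-E beta chain, spans chr17:34305867-34316674 on the plus strand. H3K18la lay beside its main start in both macrophages and stopped short of it. The BMDM peak was 698 bp at the 42.1 percentile and ended 318 bp before the start. The PIM peak was 2199 bp at 69.7 and ended 319 bp before it. The 2 peaks shared 697 bp, which overlapped an exon of the annotated transcript Gm20513, so the mark cannot be assigned to H2-Eb1 alone. No macrophage H3K27ac peak was called there, and the PIM H3K4me3 peak over the start stood at 5.6.

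Outside the macrophages H2-Eb1 was called mainly at an internal start of 1 noncoding transcript at 34309575. ADIPO had H3K18la (64.1) and H3K27ac (10.9) there, GAS H3K4me3 (56.9) and ESC-2i H3K4me3 (36.2). The ESC-2i H3K18la peak was 9288 bp at the 85.3 percentile and ran over both starts. Between H2-Aa and H2-Eb1, inside the annotated gene Gm20513, PIM had H3K18la peaks of 1029 bp (62.0) and 1434 bp (45.0). The second overlapped a BMDM H3K27ac peak of 1630 bp (34.0).

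**Figure D3:**
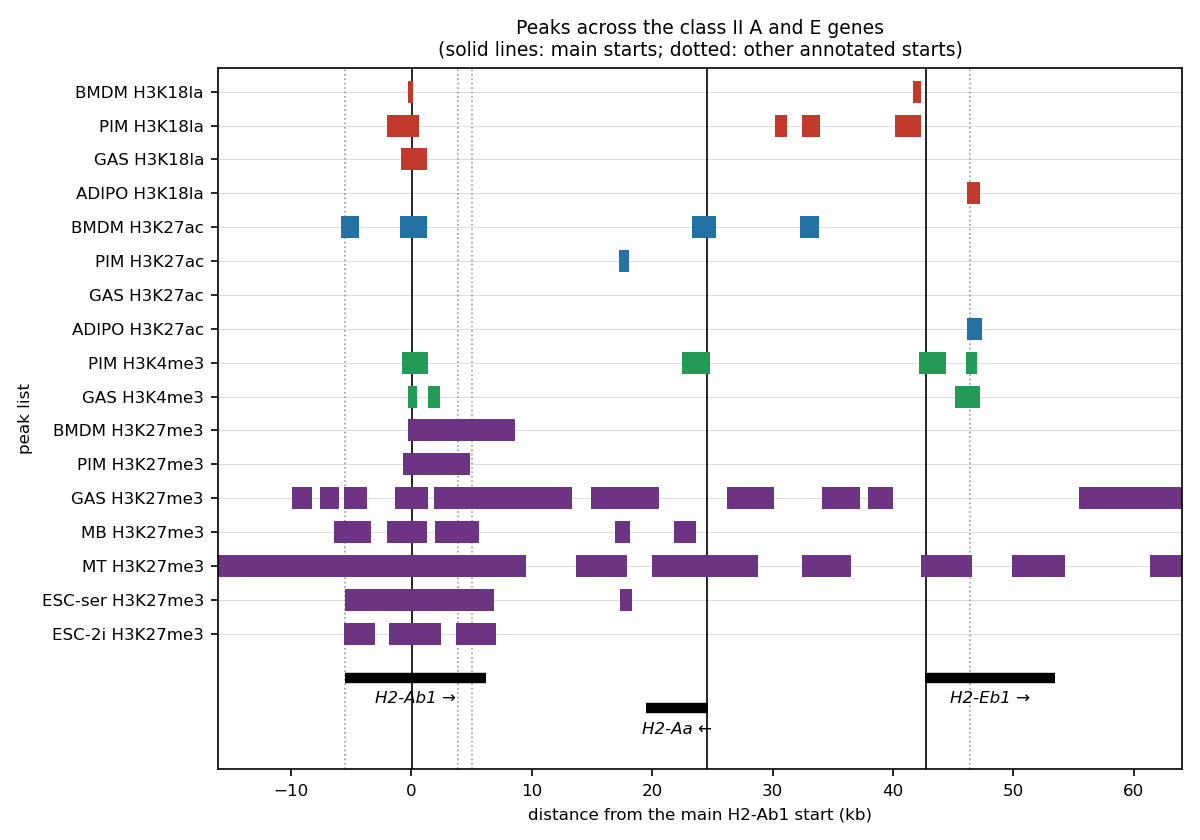
Peaks over H2-Ab1, H2-Aa and H2-Eb1 in the active-mark lists of BMDM, PIM, GAS and ADIPO and in all 7 H3K27me3 lists, against distance in kb from the main H2-Ab1 start, with bars as long as the peaks, solid lines at main starts and dotted lines at others. Short active peaks sit at the H2-Ab1 start and upstream of H2-Eb1 in the macrophages, and H3K27me3 covers most of the stretch in GAS and MT.

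Cd74, the invariant chain, lies outside the MHC at chr18:60803848-60812652 on the plus strand. It had the highest-ranking main-start peak of the 7 genes in BMDM H3K18la, BMDM H3K27ac and PIM H3K4me3. PIM H3K18la had a 1410-bp peak over the start (49.5 percentile). This ranked below main-start promoter peaks of H2-DMa (74.7), H2-Eb1 (69.7) and H2-Ab1 (55.7). A 4505-bp PIM H3K18la peak within the gene (84.9) began 1295 bp past the nearest start, still in the promoter window. BMDM H3K18la had 605 bp ending 437 bp before the start (45.2) and 690 bp in an intron (56.7). The BMDM H3K27ac peak was 5324 bp over the start (89.8), and the PIM H3K4me3 peak 5114 bp (69.9).

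PIM had no H3K27ac peak in the whole Cd74 window, although the window was called for its other active marks. GAS had H3K18la over the start (2590 bp, 22.6) and H3K27ac in the gene body (5127 bp, 48.8). Neither ADIPO list, nor MB, nor MT had a peak there, and the stem cell peaks in the window lay on exons of the neighbour Tcof1. No H3K27me3 list had a peak in the window.

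H2-DMb1, the editor's beta chain, spans chr17:34153072-34160230 on the plus strand. It had active peaks at its main start in PIM for each mark: H3K18la 1040 bp at 19, H3K27ac 1214 bp at 10.1 and H3K4me3 2045 bp at 49.4. BMDM had none. GAS had H3K4me3 at 12.1 (268 bp) and 8.9 (813 bp), inside an H3K27me3 peak of 11794 bp at 96.7. MT H3K27me3 ran over it for 28898 bp (96.6).

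H2-DMa, the alpha chain, spans chr17:34119541-34139101 on the plus strand, and its calls need care. An upstream start lies 198 bp beyond the end of Brd2, a broadly used bromodomain gene, and 12796 bp before the main H2-DMa start. Peaks there gave H2-DMa a call in all 17 active lists, at percentiles of 81.9 (BMDM H3K18la) to 99.8 (PIM H3K27ac) except in the H3K18la lists of PIM (38.2) and MB (12.3). The reads of the 2 genes cannot be told apart at this start.

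At the H2-DMa main start the picture was narrower. H3K18la was called there in PIM (3267 bp, 74.7), ESC-ser (23.4) and GAS (7.3), and not in BMDM or ADIPO. H3K27ac was called in PIM (32.5), ADIPO (22.3), GAS (8.3) and ESC-ser (6.4). H3K4me3 was called in PIM (64.3) and GAS (40.5). BMDM had no H3K18la or H3K27ac peak at the main start of either DM chain.

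Seen as stretches of chromosome, the I-A and I-E stretch of 79.0 kb (the 3 genes with 10 kb on each side) was covered by PIM H3K18la over 9.29% of its length, where the list covered 2.62% of the genome. BMDM H3K18la covered 1.32% (genome 0.856%), GAS 2.81% (4.67%), ADIPO 1.44% (2.91%) and ESC-2i 11.8% (4.86%). BMDM H3K27ac covered 9.25% (1.24%) and PIM H3K27ac 1.03% (1.04%). H3K27me3 covered 67.0% in MT (genome 6.56%), 53.6% in GAS (5.24%), 17% in ESC-ser (3.29%), 16.6% in MB (2.08%), 12.9% in ESC-2i (5.51%), 11.3% in BMDM (3.75%) and 7.05% in PIM (3.89%).

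The 68.4-kb Ciita stretch had H3K27me3 over 60.3% in MT (genome 6.56%), 41.5% in GAS (5.24%), 36.4% in PIM (3.89%), 35.3% in MB (2.08%) and 32.4% in BMDM (3.75%). Relative to the genome share the order was different, with 17 times in MB, 9.34 in PIM, 9.19 in MT, 8.64 in BMDM and 7.91 in GAS. Both macrophages had more H3K27me3 over Ciita than over the chain genes. The 60.7-kb DM stretch had none in BMDM or PIM, 22.6% in GAS and 47.6% in MT. In the 28.8-kb Cd74 stretch H3K18la covered 20.5% in PIM (genome 2.62%), 8.99% in GAS (4.67%), 4.50% in BMDM (0.856%) and 0 in ADIPO (2.91%). Relative to its genome share, coverage was 7.85 times in PIM, 5.25 in BMDM and 1.92 in GAS.

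**Figure D4:**
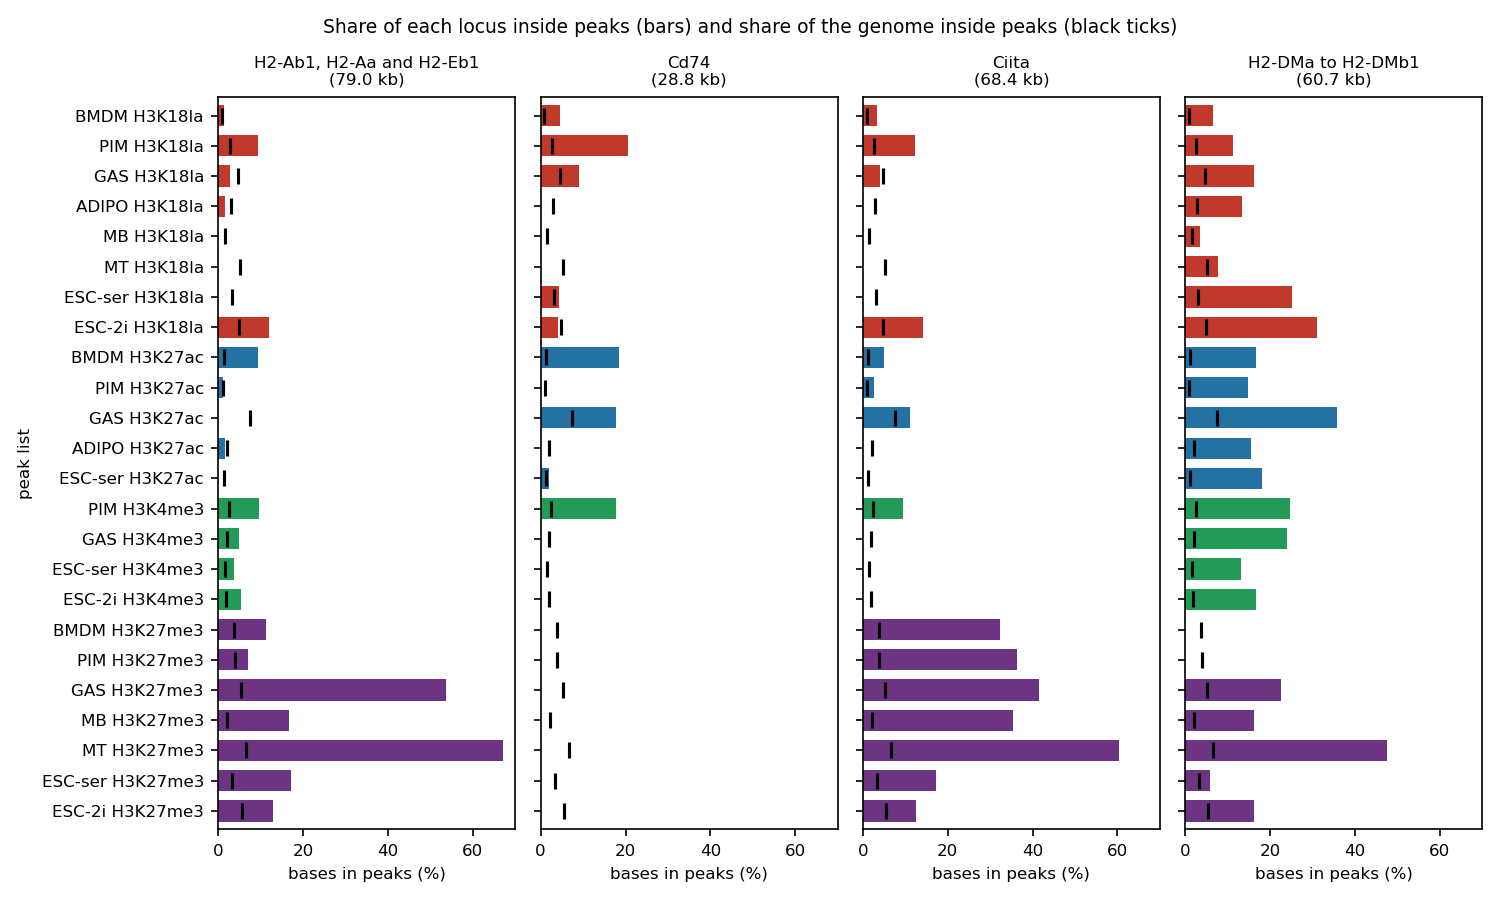
Percent of each stretch (gene with 10 kb on each side) under peaks, by list (bars), with a black tick at the percent of the genome that the list covers. H3K27me3 reaches 67.0% of the I-A and I-E stretch in MT and 0 at Cd74 in every list.

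Counted over gene windows (body and 10 kb on each side), H3K18la reached 7 of 7 members in PIM (36.3% of all genes), 6 in BMDM (22.6%), 4 in GAS (37.4%) and 2 in ADIPO (38.7%). Neighbouring windows overlap, so 1 peak can count for more than 1 gene. H3K27ac reached 7 windows in BMDM (28.0% of all genes), 4 in PIM (37.5%), 4 in GAS (41.9%) and 2 in ADIPO (37.0%).

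Another 34 genes of antigen presentation, listed by role, were scored at promoters with the same lists. H3K18la was called at 26 of 34 in PIM (76.5%, against 22.8% of all genes), 24 in ADIPO (70.6%, 25.7%), 23 in GAS (67.6%, 23.3%) and 19 in BMDM (55.9%, 11.1%). H3K27ac was called at 28 in PIM (82.4%, 26.1%), 22 in ADIPO (64.7%, 25.5%), 25 in GAS (73.5%, 30.0%) and 28 in BMDM (82.4%, 18.6%). H3K4me3 was called at 31 in PIM (91.2%, 33.0%) and 24 in GAS (70.6%, 35.2%). H3K27me3 was called at 0 in BMDM (12.9% of all genes), 1 in PIM (Cd40; 16.9%), 7 in GAS (20.6%, 17.7%) and 11 in MT (32.4%, 15.2%), so that GAS lay near the share of all genes.

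Of 5 other class II chains, H3K18la was called at 1 in BMDM (H2-DMb2, 68.6 percentile; 11.1% of all genes), 1 in PIM (H2-Ea, annotated as a pseudogene, 85.2; 22.8%), 1 in GAS (H2-Ob, 9.3; 23.3%) and 0 in ADIPO (25.7%). BMDM H3K27ac had 3 of 5, H2-DMb2 (11.3), H2-Oa (21.9) and H2-Ob (3.3), beside 18.6% of all genes, and PIM H3K27ac had 0 of 5 (26.1%). PIM H3K4me3 had 2 of 5, H2-DMb2 (26.2) and H2-Ob (17.2; 33.0%). H3K27me3 was called at 3 of 5 in GAS (17.7%), with H2-Ea at 98.5 and H2-Eb2 at 93.1.

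Of 11 partners and inducers of CIITA, H3K18la was called at 6 in BMDM (11.1% of all genes), 8 in PIM (22.8%), 8 in GAS (23.3%) and 11 in ADIPO (25.7%). Rfx5 and Rfxap, subunits of the RFX complex, were called in PIM (49.8 and 31.7) and not in BMDM, and so was the interferon-response factor Irf1 (69.0). Spi1, which encodes PU.1, ranked 99.5 in BMDM, 99.0 in PIM, 96.6 in GAS and 83.9 in ADIPO.

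Of 6 endosomal genes H3K18la was called at 5 in BMDM (11.1% of all genes), 6 in PIM (22.8%), 5 in GAS (23.3%) and 4 in ADIPO (25.7%). Of 4 genes of turnover and co-stimulation it was called at 3, 4, 1 and 1 in the same lists. Ctss, the protease that trims the invariant chain, had H3K18la in BMDM (38.0) and PIM (81.7) and not in GAS or ADIPO. Ifi30, a thiol reductase of antigen processing, had it in PIM (93.7) and GAS (69.1) and not in BMDM or ADIPO. The co-stimulatory ligands Cd80 and Cd86 had H3K18la at 82.2 and 68.8 in BMDM and at 91.0 and 87.7 in PIM. Cd40, the receptor for T cell help, had it in PIM alone of the 4 (87.9), and Marchf1, the ligase that sends class II for degradation, in BMDM (75.3) and PIM (67.7). H3K4me3 was called at 4 of these 4 genes in PIM (33.0% of all genes) and 0 in GAS (35.2%). H3K27ac was called at 3 in BMDM (18.6%), 3 in PIM (26.1%), 2 in GAS (Cd80 at 62.8 and Cd86 at 78.7; 30.0%) and 0 in ADIPO (25.5%).

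Genes of the class I route, most of which lie in the same region of chromosome 17, were called in all 4 cells: H3K18la at 4 of 8 in BMDM (11.1% of all genes), 7 in PIM (22.8%), 8 in GAS (23.3%) and 8 in ADIPO (25.7%). B2m, the light chain of class I, ranked 81.5 in BMDM, 94.8 in PIM, 74.3 in GAS and 79.8 in ADIPO. Tap1, Psmb8, Psmb9 and H2-K1 had H3K18la in PIM, GAS and ADIPO and not in BMDM. Tap1 and Psmb9 share a promoter region, so their calls are the same peak, counted for each gene.

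**Figure D5:**
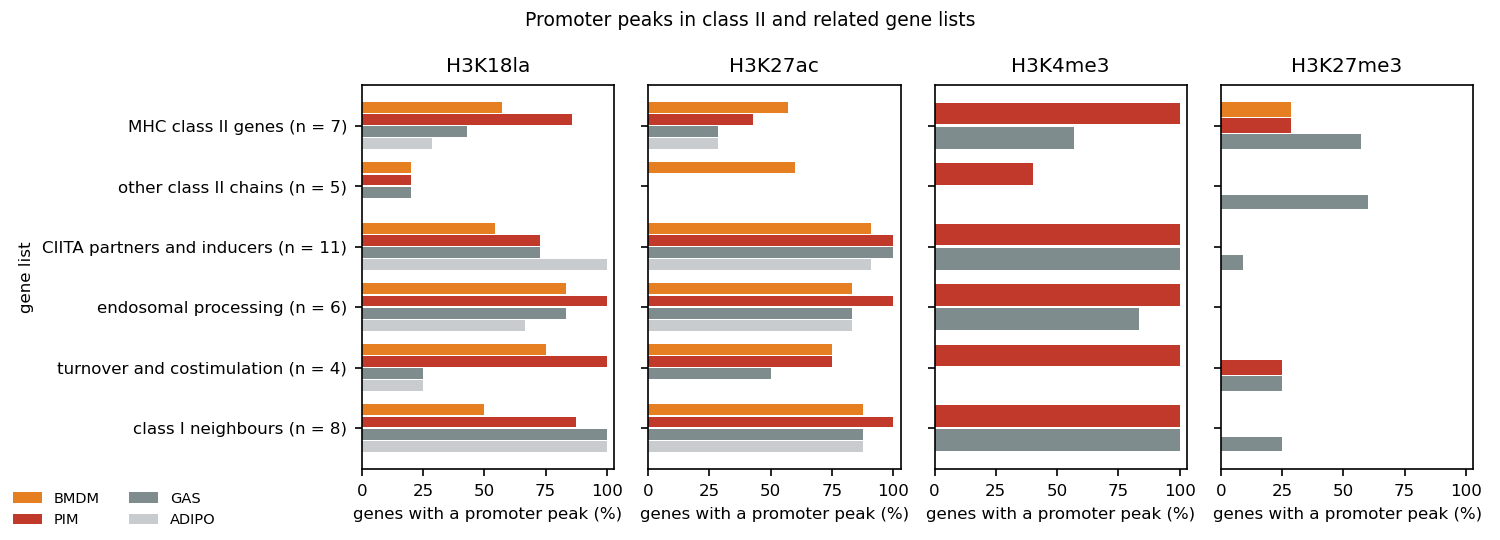
Percent of the genes of each role list (rows, with the number of genes) that had a promoter peak, by mark, in BMDM, PIM, GAS and ADIPO where a peak list exists. Among these cells the 7 class II genes reach their highest values in PIM for H3K18la (85.7%) and H3K4me3 (100%), in BMDM for H3K27ac and in GAS for H3K27me3 (both 57.1%).

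The genes whose promoter calls over the 24 lists were most like each of 3 members were found among 21716 protein-coding genes. For Cd74, 13 genes differed in 1 of 24 calls, and the closest 5 by percentile were Olfr111, 5430427O19Rik, Clec4n, Bex6 and P2ry13. For H2-Ab1 the nearest were Smpd3 and Tal1 (2 calls differing), then Kcna2, Cdh4 and Kcnq3 (3). For Ciita they were Scrt2 (2), then Gfi1b, Bcas1 and Degs2 (3). Among the closest 5 for Cd74, Clec4n is a lectin receptor of myeloid cells and P2ry13 a nucleotide receptor.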

How the data were processed

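The values are the authors' deposited SEACR peaks: position, total signal and maximum signal per peak (columns 4 and 5, unscaled whole numbers). Per the methods and labels, CUT&Tag reads were trimmed (Trim Galore 0.6.6), aligned to mm10 with Bowtie2 2.4.4, converted with SAMtools 1.13 and bedtools 2.30, merged over replicates, and called with SEACR 1.3 (stringent, top 1%). Merging removes replicate error. A top-1% threshold makes list size depend on background.

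Peaks were intersected (1 bp) with GENCODE M21 promoters in Python 3.11.15 (pandas 2.3.3). The overlap code was tested on simulated data. Coordinates are 1-based. Promoter sequences came from RefSeq (GRCm38.p6), and all 2704 of chromosomes 16 and 17 matched the genome letter for letter. Members and gene lists were chosen with earlier results of these data known. The main-start count and the motif spacing were chosen after seeing the data. Named were the members, listed genes whose calls differed between macrophages or from GAS and ADIPO, and the 5 most similar genes. Some genes meeting this rule are not reported here.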

Additional observations from a re-analysis of the deposited data

How the results depend on the processing

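The 13 promoter counts of BMDM, PIM, GAS and ADIPO kept within 1.5 times of their value with promoters of 1000 bp on each side, with an overlap of at least 500 bp, and, for window counts, with the gene body alone. With protein-coding starts only, ADIPO H3K18la, GAS H3K27ac and ADIPO H3K27ac each fell to 1, and the other 10 stayed within 1.5 times. The share of all genes was not computed for that setting. With the main start only (chosen after seeing the data), the 3 counts were 0, 1 and 1. The shares of protein-coding genes called were then 40.4% for ADIPO H3K18la, 42.7% for GAS H3K27ac and 42.2% for ADIPO H3K27ac.

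Shortening the lists changed more. In 1 setting only the peaks above the median of each list by total signal were kept. H3K18la then reached 1 member in BMDM, 1 in GAS, 2 in ADIPO and still 4 in PIM. H3K27ac reached 2 in BMDM and 1 each in PIM, GAS and ADIPO, and H3K4me3 4 in PIM and 2 in GAS. H3K27me3 reached 1 in BMDM and stayed at 2 in PIM and 4 in GAS. In these lists the share of all genes called for H3K18la was 5.87% in BMDM, 13.8% in PIM, 14.5% in GAS and 15.6% in ADIPO. For H3K27ac it was 5921 of 53843 genes in BMDM, 19.5% in PIM, 21.2% in GAS and 16.6% in ADIPO. For H3K4me3 it was 25.8% in PIM and 29.6% in GAS, and for H3K27me3 9.81% in BMDM, 13.3% in PIM and 12.5% in GAS. With the 5000 peaks of most signal, H3K18la reached 1 in each of BMDM, PIM, GAS and ADIPO. H3K27ac reached 2 in BMDM and 1 in PIM, GAS and ADIPO, and H3K4me3 1 in PIM and GAS. H3K27me3 reached 1 in BMDM, 0 in PIM and 3 in GAS. The share of all genes called was then 3.02% to 5.71% for H3K18la, 8.07% to 10.0% for H3K27ac, and 13.0% and 13.3% for H3K4me3. For H3K27me3 it was 9.05% in BMDM, 10.5% in PIM and 6.11% in GAS. With the lists of a mark reduced to equal bases, H3K18la stayed at 4 in BMDM, the shortest list, and fell to 0 in PIM, 0 in GAS and 1 in ADIPO. The higher H3K18la count in PIM than in BMDM held, of these lengths, at the deposited one and above the median, and turned under equal bases. Under equal bases H3K27ac reached 2 in BMDM, 0 in GAS and 1 in ADIPO and stayed at 3 in PIM, so that PIM then exceeded BMDM. H3K4me3 reached 3 in PIM and 2 in GAS, and H3K27me3 0 in BMDM, 0 in PIM and 3 in GAS. Equal bases left 11.1% of all genes called in BMDM, 4.42% in PIM, 2.41% in GAS and 3.23% in ADIPO for H3K18la, and 15.2%, 26.1%, 2.95% and 10.6% for H3K27ac. For H3K4me3 the shares were 24.4% in PIM and 30.7% in GAS, and for H3K27me3 6.61% in BMDM, 8.83% in PIM and 7.12% in GAS. The median member percentile for H3K18la was 47.0 in BMDM and 47.8 in PIM by maximum signal, and 23.9 and 73.9 by peak width. For H3K4me3 in PIM it was 34.1 by maximum signal.

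No paired analysis was possible because replicates had been merged before calling, and for the same reason leaving out a replicate was not run. A gene without a peak was below the calling threshold of its list, which is not absence of the mark. Peaks at H2-Aa in BMDM and PIM stood within the lowest few percent of their lists. Lists of 1 sample (all of BMDM and MB, PIM H3K27ac and ESC-ser H3K27ac) give no view of variation between mice or cultures, and read depth per sample was not used here.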
